A study of Mus musculus with 12 samples.

Results

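Serpins and the plasminogen activator system were followed here through 9 genes in pancreatic stellate cells (PSCs): the plasminogen activators *Plau* and *Plat*, the urokinase receptor *Plaur*, and the serpins *Serpine2*, *Serpinb2*, *Serpina3g*, *Serpina3n*, *Serpinf1* and *Serpinh1*. They were the rows of the count table whose gene symbol was one of these 9 names, out of 39179 genes in the table, and every one of the 9 was found. The PSCs are a mouse line (strain C57BL/6) immortalised with SV40, kept as 1 clone and marked with mCherry, so all libraries come from the same line and none from freshly isolated stellate cells. They were grown for 72 h alone (mono-PSCs), with pancreatic cancer cells (PCCs, a mouse tumour line; 2W-PSCs), or with PCCs and macrophages (MØs, the RAW264.7 line; 3W-PSCs), and were then sorted by flow cytometry for mCherry. 4 libraries were made per culture, 12 in all, and the study asked how tumour cells and MØs together change the state of these fibroblasts. The libraries are 3′ tag libraries of polyadenylated RNA, so each read counts a transcript near its end. Levels are CPM, counts scaled to a common library size after TMM normalisation of the 12 libraries, and are compared between cultures for 1 gene at a time, not between genes.

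In the plasminogen activator system, urokinase (uPA, encoded by *Plau*) and tissue-type activator (tPA, encoded by *Plat*) cut plasminogen into plasmin, a protease that dissolves fibrin and degrades extracellular matrix. The urokinase receptor (uPAR, encoded by *Plaur*) holds urokinase at the cell surface. Serpins are a protein family in which most members trap a target protease in a covalent complex, while a few have lost that activity and serve as chaperones or secreted signals. In tumour stroma the system is known for its part in matrix turnover and cell migration.

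Promoter sequence is shown for the receptor gene and for genes at or near 0 counts in 2 cultures and counted in the third. The cluster neighbours shown, *Serpina3f* and *Serpina3i*, were likewise counted in all 3W libraries. Promoters of the other *Serpina3* neighbours were not scanned. The sequences are the 250 bases before the RefSeq transcription start, from the table for GRCm38.p6, 5′ to 3′ on the strand of the gene. 7 of the 9 members had an entry there; *Plau* and *Plat* are named only. Capitals mark matches, on either strand, to 4 motifs: the STAT motif TTCNNNGAA, the AP-1 motif TGANTCA, the interferon-stimulated response element and the NF-κB motif. Of 32851 promoter windows of the same length, 7.02% held the STAT motif, 6.75% the AP-1 motif, 2.98% the interferon element and 3.9% the NF-κB motif.
Serpina3g, chr12:104235897-104236146, plus strand: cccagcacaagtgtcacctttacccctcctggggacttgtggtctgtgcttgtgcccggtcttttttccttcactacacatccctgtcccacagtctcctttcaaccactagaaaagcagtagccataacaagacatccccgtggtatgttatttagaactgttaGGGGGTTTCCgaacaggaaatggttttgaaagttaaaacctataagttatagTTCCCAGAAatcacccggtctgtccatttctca
Serpina3f, chr12:104214294-104214543, plus strand: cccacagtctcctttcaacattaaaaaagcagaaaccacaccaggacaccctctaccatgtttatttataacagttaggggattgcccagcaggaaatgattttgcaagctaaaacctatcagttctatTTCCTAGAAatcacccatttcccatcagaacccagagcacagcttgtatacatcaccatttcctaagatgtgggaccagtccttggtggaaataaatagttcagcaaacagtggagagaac
Serpina3i, chr12:104262872-104263121, plus strand: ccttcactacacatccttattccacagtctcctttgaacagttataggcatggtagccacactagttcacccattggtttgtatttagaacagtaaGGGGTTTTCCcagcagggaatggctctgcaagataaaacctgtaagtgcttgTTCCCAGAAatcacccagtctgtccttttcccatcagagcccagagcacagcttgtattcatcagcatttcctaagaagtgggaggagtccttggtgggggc
Serpina3n, chr12:104406458-104406707, plus strand: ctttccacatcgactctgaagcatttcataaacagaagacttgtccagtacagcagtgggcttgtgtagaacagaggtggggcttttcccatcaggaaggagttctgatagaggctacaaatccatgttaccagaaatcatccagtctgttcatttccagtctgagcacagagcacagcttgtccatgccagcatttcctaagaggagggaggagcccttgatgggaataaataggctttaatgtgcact
Serpinb2, chr1:107511173-107511422, plus strand: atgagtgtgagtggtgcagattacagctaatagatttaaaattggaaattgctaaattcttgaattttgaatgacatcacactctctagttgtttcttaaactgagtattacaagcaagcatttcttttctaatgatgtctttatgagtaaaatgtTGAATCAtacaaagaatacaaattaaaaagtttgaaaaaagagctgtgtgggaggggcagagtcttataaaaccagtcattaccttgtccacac
Plaur, chr7:24462233-24462482, plus strand: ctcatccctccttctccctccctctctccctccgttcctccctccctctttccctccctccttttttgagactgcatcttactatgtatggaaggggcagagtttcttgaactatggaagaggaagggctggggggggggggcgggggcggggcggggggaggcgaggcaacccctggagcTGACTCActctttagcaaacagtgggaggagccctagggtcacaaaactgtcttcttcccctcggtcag

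In *Serpina3g* the NF-κB match lay at bases -85 to -76 from the start and the STAT match at -33 to -25. *Serpina3i* held the same pair of motifs, at -154 to -145 and -102 to -94, and *Serpina3f* a STAT match at -121 to -113. *Serpina3n* held none of the 4 motifs in this window. The AP-1 match of *Serpinb2* lay at -94 to -88, and a second annotated start of this gene has a STAT match in its window as well. *Plaur* held an AP-1 match at -69 to -63. Of the other members with an entry, *Serpinh1* held an NF-κB match and *Serpine2* and *Serpinf1* held none. The *Serpina3g* window ends at base 104236146, short of the GENCODE start of the gene at 104236245. Bases after that RefSeq start were not found in the gene's GENCODE transcripts, so its distances hold for the RefSeq start only. A match describes the letters only, and binding was not measured.

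Total counts ran from 5286963 to 8093368 in mono-PSCs, from 4561817 to 6907711 in 2W-PSCs and from 7205488 to 8061367 in 3W-PSCs. Replicate 2 of 2W-PSCs stood apart: its Spearman correlation with the other 2W libraries was 0.858 to 0.920, against 0.948 to 0.987 between all other pairs within a culture, and its total was the lowest. Stellate and fibroblast markers were abundant, with *Col1a1*, *Col1a2*, *Vim* and *S100a4* at the highest levels, whereas *Gfap*, a marker of stellate cells, had 0 counts and *Lum* and *Des* were near 0. Over the 14 markers the sum was 8560 to 10890 CPM in PSCs grown alone, 10100 to 10900 with PCCs and 6406 to 7758 with PCCs and MØs, so every 3W library lay below all others. Of the 11 tested in 3W against 2W, 2 were called higher and 5 lower, against 5.73% and 4.95% of all genes tested. Epithelial markers (11) summed to 0.481 to 2.43 CPM in mono-PSCs, 74.3 to 145.0 with PCCs and 50.2 to 88.5 with PCCs and MØs, led by *Krt18*, with *Epcam* and *Cldn4* at or near 0. Macrophage markers (16 of 17 in the table) summed to 2.78 to 9.71 CPM in mono-PSCs, 4.90 to 11.8 with PCCs alone and 26.9 to 82.4 with PCCs and MØs, led in 3W-PSCs by *Mpeg1*, *Cybb* and *Cd53*. These sums moved with the cultures beside every result that follows, and their part in them was not tested. A change of RNA per cell and a change in the cells sorted cannot be told apart in bulk libraries. The labels do not say that replicates came from separate cultures, so p-values measure the spread between these libraries.

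Of the 9 members, 6, 8 and 8 had enough counts to be tested in 2W against mono, 3W against 2W and 3W against mono. In 2W-PSCs against mono-PSCs none of the 6 was called at an adjusted p under 0.05 (edgeR, quasi-likelihood), in a comparison where 0.991% of 11199 genes were called. *Plat*, *Plaur* and *Serpinf1* had an unadjusted p under 0.05, all higher in 2W-PSCs, and DESeq2 called 2 of the 6. In 3W-PSCs against 2W-PSCs *Serpina3g* and *Serpina3n* were called higher and *Serpinf1* lower, 3 of 8, against 10.7% of 11513 genes (5.73% higher and 4.95% lower). In 3W-PSCs against mono-PSCs *Serpina3g*, *Serpina3n*, *Plat* and *Plaur* were called higher, 4 of 8, against 26.4% of 11551 genes (13.4% higher). *Serpina3g* and *Serpina3n* passed the filter on low counts only through the 3W libraries in which they were counted, so these shares are a description. Over the members tested, the median log2 fold change was 0.69, -0.17 and 0.69 in the 3 comparisons, against 0.02, 0.003 and 0.012 over all genes tested. Each pair of comparisons shares the 4 libraries of 1 culture.

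**Figure D1:**
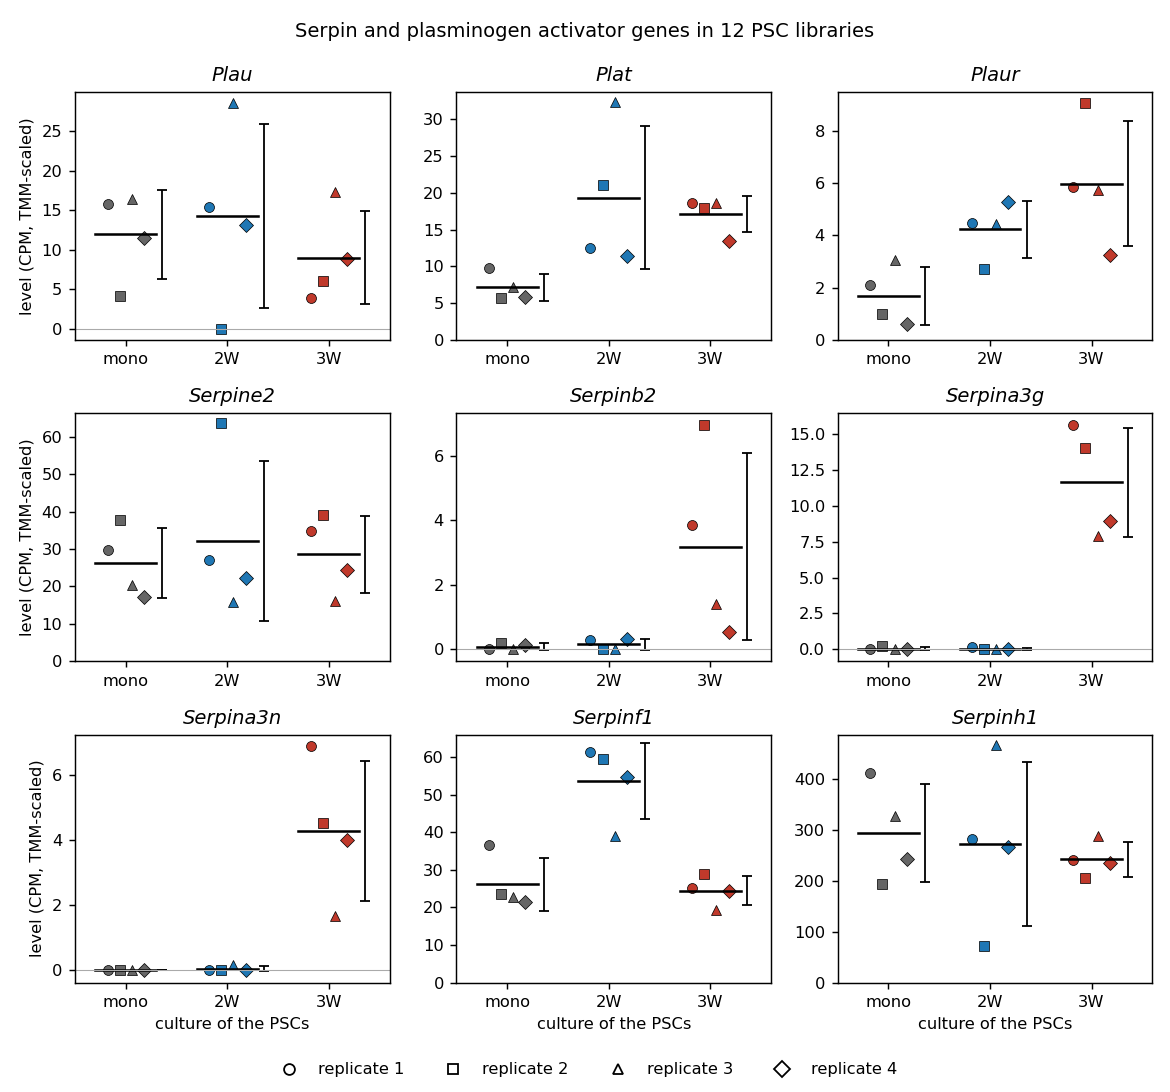
Level of each of the 9 genes (y axis, CPM with TMM scaling, own scale per gene) in the mono, 2W and 3W cultures (x axis), with 1 symbol per library, shaped by replicate number, the mean as a bar and the SD as a whisker (n = 4). *Serpina3g*, *Serpina3n* and *Serpinb2* lie at or near 0 in mono-PSCs and 2W-PSCs and above 0 in all 4 3W libraries, while *Serpinf1* is highest in 2W-PSCs.

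*Plat*, encoding the activator that acts chiefly on fibrin-bound plasminogen, was called higher in 3W-PSCs against PSCs grown alone, and its 2W libraries were high as well. Its level in mono-PSC replicates 1 to 4 was 9.74, 5.75, 7.20 and 5.89 CPM, in 2W-PSCs 12.5, 21.1, 32.4 and 11.3 CPM, and in 3W-PSCs 18.6, 17.9, 18.6 and 13.5 CPM. Every co-culture library lay above every mono library, whereas the 2 co-cultures overlapped, and 2W-PSCs were the most spread. Of genes tested, 13.9% lay wholly higher in 3W than in mono. Against a mean of 7.14 ± 1.85 CPM in the mono libraries, *Plat* rose to 17.1 ± 2.45 CPM when PCCs and MØs were present (SD, n = 4), log2 fold change 1.26 ± 0.25 (SE), with an adjusted p of 0.001365 in edgeR. This call held in all 15 alternative settings. In 2W-PSCs the mean was 19.3 ± 9.74 CPM and the log2 fold change over mono-PSCs 1.46 ± 0.38 (adjusted p = 0.1246, edgeR), which is not called, although the exact two-sided permutation test gave p = 0.0286, the smallest that 4 libraries against 4 allow, and 3.23% of genes tested lay wholly higher there. Of 15 alternative settings only DESeq2 (adjusted p = 0.01555) and the fit of all 12 libraries (0.02706) called it. Epithelial markers were also higher in both co-cultures, and their part in the level of *Plat* was not tested. Replicate 3 of 2W-PSCs had the highest *Plat* and the lowest epithelial sum of the 2W libraries (74.3 CPM). 3W-PSCs and 2W-PSCs differed by a log2 fold change of -0.17 (95% interval -0.88 to 0.54, adjusted p = 0.7777).

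*Plau*, encoding urokinase, was called in no comparison. Its levels were 15.8, 4.16, 16.4 and 11.5 CPM in mono-PSCs, 15.4, 0, 28.6 and 13.1 CPM in 2W-PSCs and 3.85, 6.04, 17.3 and 8.82 CPM in 3W-PSCs. All 3 cultures overlapped. The library at 0 was replicate 2 of 2W-PSCs, where 3 counts, the limit that a count of 0 allows, would be 0.737 CPM. Log2 fold changes were 0.29 for 2W over mono (95% interval -1.35 to 1.92), -0.68 for 3W over 2W (-2.39 to 1.02) and -0.42 for 3W over mono (-1.31 to 0.47), with adjusted p of 0.9993, 0.6229 and 0.4954 in edgeR. Without that library the difference of 3W-PSCs from 2W-PSCs was -1.08 (adjusted p = 0.07501). A 2-fold fall lies within all 3 intervals, and a 2-fold rise within those of 2W over mono and 3W over 2W.

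*Plaur*, encoding the urokinase receptor, was higher in PSCs grown with PCCs and MØs than in PSCs grown alone. It was measured at 2.09, 0.991, 3.06 and 0.601 CPM in mono-PSCs, at 4.48, 2.702, 4.45 and 5.27 CPM in 2W-PSCs and at 5.85, 9.06, 5.72 and 3.24 CPM in 3W-PSCs. The 3W and mono libraries did not overlap, with 3W replicate 4 just above the highest mono library, and 2W-PSCs overlapped with both. Of genes tested, 13.9% lay wholly higher in 3W than in mono. The mean of the mono libraries was 1.69 ± 1.11 CPM and that of the 3W libraries rose to 5.97 ± 2.38 CPM (SD, n = 4), a log2 fold change of 1.84 ± 0.50 (SE, adjusted p = 0.01086, edgeR). The call held in 13 of 14 alternative settings and was lost without 3W replicate 2 (log2 fold change 1.57, adjusted p = 0.05863). 2W-PSCs, at 4.23 ± 1.09 CPM, lay between: the log2 fold change over mono-PSCs was 1.37 (95% interval 0.15 to 2.58, adjusted p = 0.5567) and that of 3W-PSCs over 2W-PSCs 0.48 (-0.35 to 1.32, adjusted p = 0.4605).

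*Serpine2* encodes protease nexin-1, an inhibitor of thrombin and of the plasminogen activators at the cell surface. Its level was 29.7, 37.7, 20.3 and 17.1 CPM in mono-PSCs, 27.04, 63.6, 15.7 and 22.4 CPM in 2W-PSCs and 34.7, 39.1, 16.03 and 24.4 CPM in 3W-PSCs. The cultures overlapped fully, and in each of them replicate 2 was the highest library. The means were 26.2 ± 9.34, 32.2 ± 21.5 and 28.6 ± 10.4 CPM (SD, n = 4), with log2 fold changes of 0.32 (95% interval -0.56 to 1.19), -0.16 (-1.07 to 0.74) and 0.13 (-0.46 to 0.72) for 2W over mono, 3W over 2W and 3W over mono. None was called (adjusted p = 0.9993, 0.8395 and 0.7724, edgeR), and without 2W replicate 2 the first became -0.25 and the second 0.39.

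*Serpinb2* encodes PAI-2, a largely intracellular inhibitor of urokinase made by activated myeloid and stromal cells. Its counts were 0, 1, 0 and 1 in mono-PSCs, 2, 0, 0 and 2 in 2W-PSCs and 29, 60, 11 and 4 in 3W-PSCs. In CPM the 3W libraries were at 3.85, 6.97, 1.399 and 0.519, all above the highest library of the other cultures, 0.319 CPM. In mono replicates 1 and 3 and 2W replicate 2, 3 counts, the limit that a count of 0 allows, would be 0.522, 0.540 and 0.737 CPM. 3W replicate 4 was therefore not set apart from these libraries beyond counting error. The mean in 3W-PSCs, 3.18 ± 2.89 CPM (SD, n = 4), was at least 6.03-fold higher than in 2W-PSCs and at least 6.32-fold higher than in mono-PSCs, counting 3 reads per library there. The gene did not pass the filter on low counts, with 4 counts in 3W replicate 4, and so had no adjusted p. The exact two-sided permutation test gave p = 0.0286 for 3W against each other culture. Of the genes that passed the filter, which leaves out *Serpinb2*, 11.6% lay wholly higher in 3W against 2W and 13.9% in 3W against mono. Without the filter edgeR gave an adjusted p of 0.01362 against 2W-PSCs and 1.96e-06 against mono-PSCs. The gene was all but uncounted outside the 3W libraries, so these values describe the difference. The annotation has 291 exonic bases that *Serpinb2* shares with *Serpinb10* on the same strand, which the counting could have assigned to neither or either gene.

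*Serpina3g* and *Serpina3n* showed the largest fitted differences among the members tested. *Serpina3g*, or Spi2A, encodes an intracellular inhibitor of lysosomal cathepsins that is known to be induced by cytokines. It had 0, 1, 0 and 0 counts in mono-PSCs and 1, 0, 0 and 0 in 2W-PSCs, against 118, 121, 62 and 69 in 3W-PSCs. Every 3W library was far above every other library. Of genes tested, 11.6% lay wholly higher in 3W than in 2W and 13.9% in 3W than in mono. The 3W levels of 15.7, 14.1, 7.89 and 8.95 CPM, with a mean of 11.6 ± 3.80 CPM (SD, n = 4), were at least 22.04-fold higher than in 2W-PSCs and at least 23.1-fold higher than in mono-PSCs, counting 3 reads per library there. Adjusted p in edgeR was 7.983e-05 and 2.125e-07, and both calls held in all 14 alternative settings that tested the gene. The setting with at least 10 counts in every library removed it. The main filter was passed only through the 3W libraries, so these values describe the difference. Of the 75-base windows in the last 500 bases of its transcripts, 10.9% also occur in *Serpina3h*, which itself had 1 count in all 12 libraries.

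*Serpina3n* encodes a secreted acute-phase inhibitor of granzyme B, cathepsin G and neutrophil elastase. Its counts were 0 in the 4 mono libraries, 0, 0, 1 and 0 in 2W-PSCs and 52, 39, 13 and 31 in 3W-PSCs. The 3W libraries were again the only ones above 1 count. At 6.91, 4.53, 1.65 and 4.02 CPM, with a mean of 4.28 ± 2.16 CPM (SD, n = 4), 3W-PSCs were at least 8.10-fold higher than 2W-PSCs (adjusted p = 0.001698, edgeR) and at least 8.48-fold higher than mono-PSCs (adjusted p = 9.724e-05). These calls also held in all 14 alternative settings that tested it. As for *Serpina3g*, the filter was passed only through the 3W libraries, and at least 10 counts in every library removed the gene.

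Both genes lie in the *Serpina3* cluster, 14 genes over 301.6 kb of chromosome 12 on GRCm38, and their neighbours were looked at after the members' values were known. *Serpina3f* had 39, 23, 6 and 9 counts in the 3W libraries and 1 count in the other 8 together. *Serpina3i* had 4, 4, 7 and 4 counts in 3W-PSCs and likewise 1 count elsewhere. Apart from *Serpina3c*, with 0 to 4 counts in any library, the other genes of the cluster had 2 counts or fewer in every library. 4 genes of the cluster were therefore counted in all 3W libraries and all but absent from the rest, and *Serpina3f* and *Serpina3i* did not have enough counts to be tested. Of these 4, *Serpina3g*, *Serpina3f* and *Serpina3i* are the ones whose printed promoters hold a STAT match. Promoters of the cluster's other genes were not scanned, so the matches cannot be set against genes without counts.

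**Figure D2:**
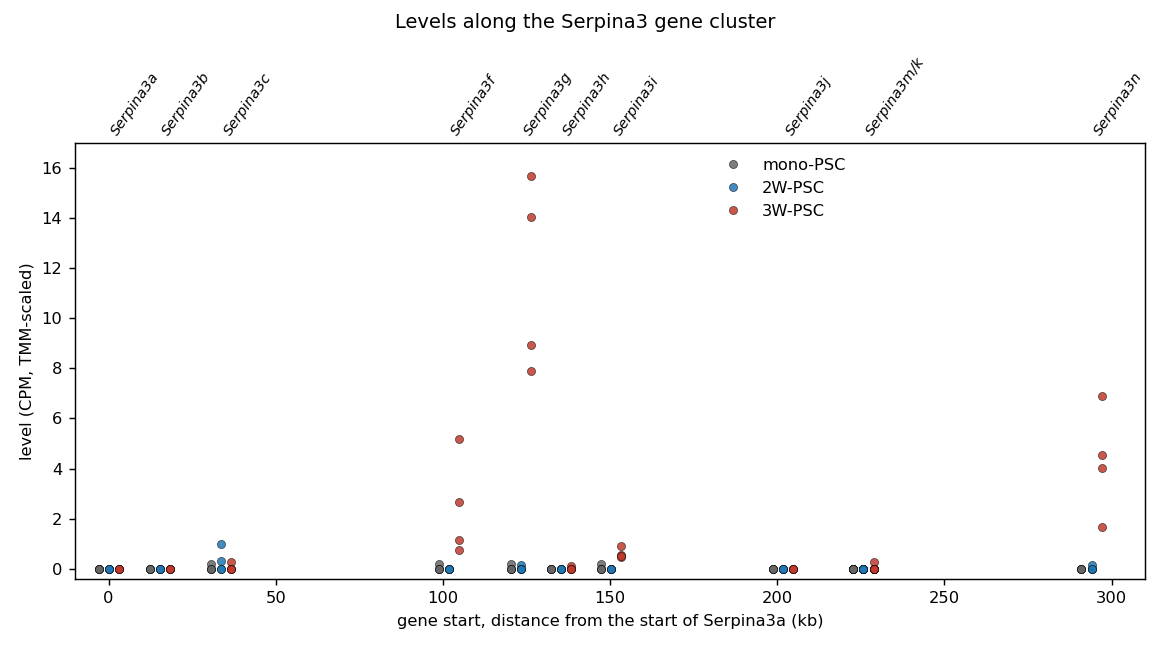
Level of the *Serpina3* genes (y axis, CPM with TMM scaling) against the distance of each gene's start from that of *Serpina3a* (x axis, kb). Each point is 1 library, coloured by culture. The 3 unprocessed pseudogenes of the cluster are left out and the cultures are offset sideways. Of the genes shown, only *Serpina3f*, *Serpina3g*, *Serpina3i* and *Serpina3n* stand above 0 in all 4 3W-PSC libraries.

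The summed macrophage markers were higher in the same libraries as these genes. In 3W replicates 1 to 4 the 16 markers summed to 36.4, 26.9, 34.98 and 82.4 CPM, with 3, 2, 2 and 0 of them at 0 counts. Of the 6 that could be tested, 3 were called higher than in 2W-PSCs, against 5.73% of all genes tested. Markers at or near 0 in 2W-PSCs could pass the filter only through the 3W libraries. *Mpeg1* averaged 6.98 CPM in 3W-PSCs (0.469 in 2W-PSCs), *Cybb* 6.30 (0), *Cd53* 5.37 (0.969) and the pan-leukocyte marker *Ptprc* 0.839 (0). Not every marker rose: *Csf1r* was at 2.31 CPM in 3W-PSCs and 2.35 in 2W-PSCs. *Coro1a* was at 1.62 CPM in 3W-PSCs, 0.461 in 2W-PSCs and 1.57 in mono-PSCs. Replicate 4 had the highest marker sum, and in it *Serpinb2* was the lowest of the 4 libraries, at 0.519 CPM, and *Serpina3g* and *Serpina3n* were the third highest. Replicate 2, with the lowest sum, had the highest *Serpinb2* and the second highest *Serpina3g*. Without replicate 4 both *Serpina3* genes were still called in 3W against 2W (adjusted p = 0.000449 and 0.006422, edgeR). The 3W libraries kept in that fit still had marker sums of 26.9 to 36.4 CPM, against at most 11.8 in 2W-PSCs. It therefore cannot separate these genes from the markers. What part sorted MØs had in these levels was not tested.

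**Figure D3:**
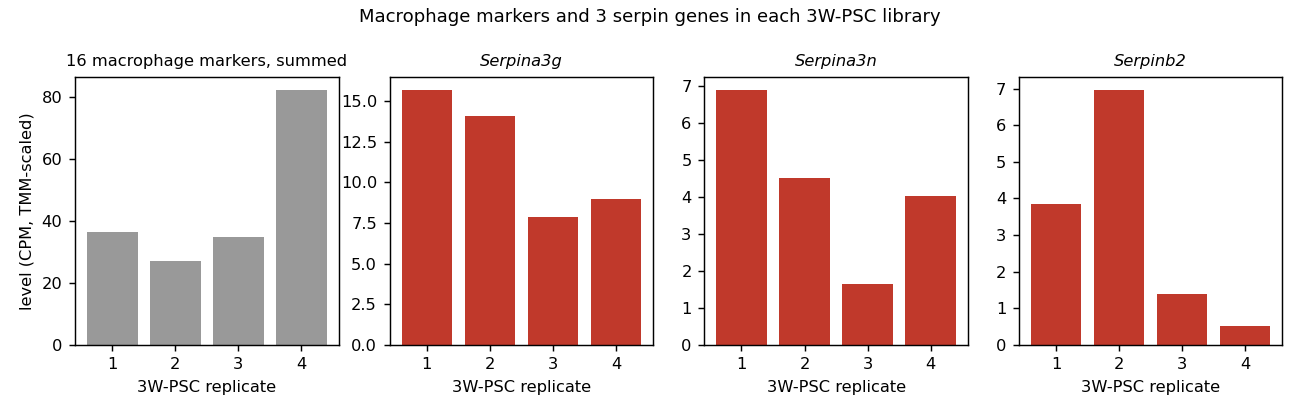
Summed level of 16 macrophage markers (grey bars) and levels of *Serpina3g*, *Serpina3n* and *Serpinb2* (red bars) in the 4 3W-PSC libraries (x axis, replicate number; y axis, CPM with TMM scaling, own scale per panel). The marker sum is highest in replicate 4, where none of the 3 genes is at its highest.

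*Serpinf1* encodes PEDF, a secreted serpin without protease inhibition that is known to restrain angiogenesis, and was the one member called lower in 3W-PSCs. It was at 36.7, 23.6, 22.9 and 21.4 CPM in mono-PSCs, at 61.4, 59.4, 39.1 and 54.8 CPM in 2W-PSCs and at 25.1, 29.02, 19.5 and 24.4 CPM in 3W-PSCs. The 2W libraries were above all others (9.72% of genes tested lay wholly lower in 3W than in 2W, 3.23% wholly higher in 2W than in mono). Mono-PSCs and 3W-PSCs overlapped. From 53.7 ± 10.1 CPM in 2W-PSCs it fell to 24.5 ± 3.93 CPM in 3W-PSCs (SD, n = 4), a log2 fold change of -1.13 ± 0.20 (SE, adjusted p = 0.006041, edgeR) that was called in all 15 alternative settings. In 2W-PSCs over mono-PSCs the log2 fold change was 1.06 ± 0.24 with an adjusted p of 0.06637, over the threshold. 7 of 15 alternative settings called that difference, with adjusted p from 0.006089 to 0.2463 over all of them. Epithelial markers were higher in 2W-PSCs too, most in replicate 4 (145.0 CPM), where *Serpinf1* was the third highest of the 2W libraries. 3W-PSCs and mono-PSCs, at 26.1 ± 7.10 CPM, differed by -0.10 (95% interval -0.55 to 0.36, adjusted p = 0.7756).

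*Serpinh1* encodes HSP47, a chaperone of the endoplasmic reticulum that binds folding procollagen. Its level was 411.9, 194.8, 326.7 and 243.5 CPM in mono-PSCs, 283.1, 72.7, 467.7 and 267.4 CPM in 2W-PSCs and 240.9, 204.7, 287.6 and 235.4 CPM in 3W-PSCs. The cultures overlapped, and in each replicate 2 was the lowest library. Means of 294.3 ± 95.5, 272.7 ± 161.4 and 242.1 ± 34.2 CPM (SD, n = 4) gave log2 fold changes of -0.09 (95% interval -1.01 to 0.83), -0.17 (-1.06 to 0.71) and -0.29 (-0.71 to 0.14) for 2W over mono, 3W over 2W and 3W over mono. None was called (adjusted p = 0.9993, 0.8225 and 0.3167, edgeR), and without 2W replicate 2 the first was 0.22 and the second -0.49 (adjusted p = 0.08687).

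**Figure D4:**
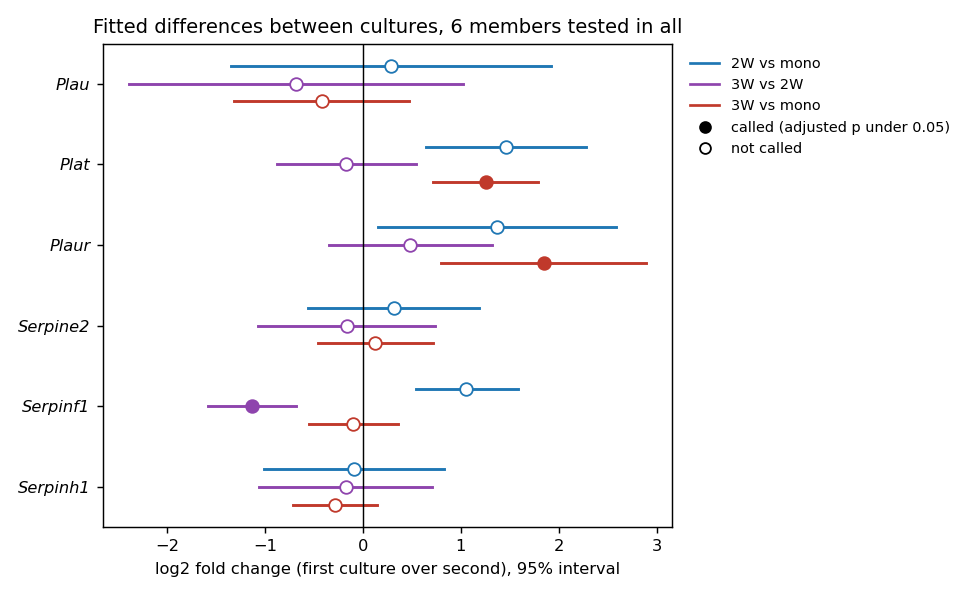
Log2 fold change from edgeR (x axis, dots) with its 95% interval (lines) for the 6 genes tested in all 3 comparisons (y axis), coloured by comparison, filled where the adjusted p was under 0.05. *Plat* and *Plaur* are called in 3W over mono and *Serpinf1* in 3W over 2W, while all intervals of *Plau*, *Serpine2* and *Serpinh1* include 0.

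Likeness to other genes was measured as Pearson's r of log2 CPM over the 12 libraries, among 11775 genes. The genes most like *Plaur* were *Angptl2* (r = 0.970) and *Cxcl5* (0.944), those most like *Plat* were *N4bp3* (0.890) and *Dynap* (0.872), and those most like *Plau* were *Oxld1* (0.975) and *Slc31a2* (0.968). *Serpine2* came closest to *Dgcr8* (0.936) and *Nop14* (0.916), and *Serpinh1* to *Anxa1* and *4930511M06Rik* (both 0.974). For *Serpinf1* the nearest was *Fap*, a marker of activated fibroblasts (0.909), before *Prx* (0.895). *Serpina3g* lay nearest to *Cybb* (0.997), which is one of the macrophage markers, and to *Gm19980* (0.995), and *Serpina3n* to *Il13ra2* (0.994) and *Gm19980* (0.988). The libraries of a culture share its conditions, so r is given as a description with no test.

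Among all serpins, 64 rows of the table in 62 symbols, 32 rows had a count in any library and 11, 14 and 14 were tested in 2W against mono, 3W against 2W and 3W against mono, members included. 0 were called higher and 2 lower in the first comparison, 3 and 2 in the second and 4 and 5 in the third, where 0.991%, 10.7% and 26.4% of all genes tested were called. The median log2 fold change of the serpins tested was -0.09, -0.54 and -0.43, against 0.02, 0.003 and 0.012 over all genes tested. Intracellular clade B serpins made up the lower calls apart from *Serpinf1*. *Serpinb1a*, an inhibitor of neutrophil proteases, was at 21.3 ± 3.81 CPM in mono-PSCs, 7.66 ± 2.66 in 2W-PSCs and 3.22 ± 1.79 in 3W-PSCs (SD, n = 4), and fell by 1.45 on the log2 scale in 2W-PSCs (adjusted p = 0.04681, edgeR) and by 2.72 in 3W-PSCs (9.492e-06) against mono-PSCs. *Serpinb9b*, a relative of the granzyme B inhibitor *Serpinb9*, was at 20.7 ± 5.76, 4.82 ± 2.44 and 2.36 ± 1.20 CPM and fell by 2.05 (adjusted p = 0.02473) and 3.12 (3.173e-06). The 2W calls of *Serpinb1a* and *Serpinb9b* were kept in 2 and 4 of the 8 fits without 1 library, and their 3W calls in all 8.

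*Serpinb8* fell from 7.96 ± 0.99 CPM in 2W-PSCs to 3.14 ± 1.20 in 3W-PSCs (log2 fold change -1.34, adjusted p = 0.03583, edgeR), a call kept in 3 of 8 fits without 1 library. *Serpinb9*, *Serpinb6a* and *Serpinb6b*, named after their values were seen, fell in 3W-PSCs against mono-PSCs with log2 fold changes of -1.32, -0.67 and -0.77 (adjusted p = 0.0008514, 0.01094 and 0.02839), the last kept in 4 of 8 fits without 1 library. *Serping1*, which encodes the C1 inhibitor of the complement and contact systems, went the other way. It had 0.778 ± 0.545 CPM in 2W-PSCs, 2.16 ± 0.615 in mono-PSCs and 5.84 ± 1.69 in 3W-PSCs, and rose in 3W-PSCs by a log2 fold change of 2.95 over 2W-PSCs (adjusted p = 0.006371) and 1.42 over mono-PSCs (0.01294). The latter call was lost without 3W replicate 2 (adjusted p = 0.07206).

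**Figure D5:**
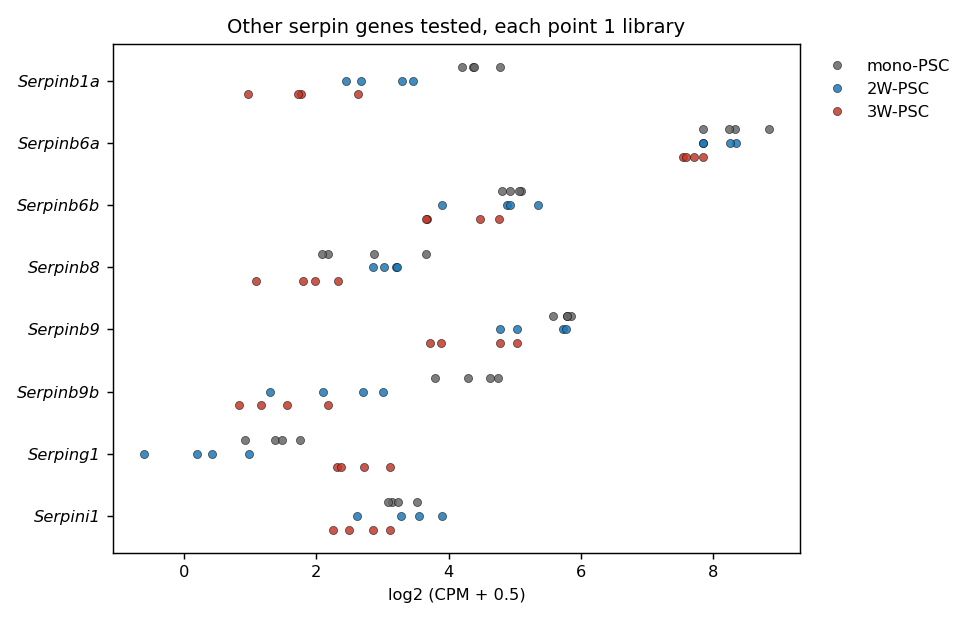
Level of 8 further serpin genes (y axis) as log2 of CPM plus 0.5 (x axis), with 1 point per library, coloured by culture. For *Serpinb1a* and *Serpinb9b* the mono libraries lie right of all others, and for *Serping1* the 3W libraries lie right of all others.

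Other genes of the system were read from 5 lists, and their counts stand beside the 0.991%, 10.7% and 26.4% of all genes tested that were called in 2W over mono, 3W over 2W and 3W over mono. Plasminogen itself (*Plg*) had 0 counts in all 12 libraries. Of 5 tested genes for plasminogen binding and activation, 0 were called in 2W over mono, 1 lower in 3W over 2W, and 3 higher and 2 lower in 3W over mono. The first of these was *Anxa2*, a cell-surface anchor for plasminogen and tPA, which fell from 1282 ± 380 CPM in 2W-PSCs to 734.1 ± 84.9 in 3W-PSCs (log2 fold change -0.81, adjusted p = 0.03542, edgeR). The call was kept in 3 of 8 fits without 1 library. Of 6 clearance receptor genes, *Lrp1*, the endocytic receptor for activator and inhibitor complexes, was called higher in 3W over 2W (0.71, adjusted p = 0.04107) and over mono (1.23, 0.005375), and *Lrpap1*, its chaperone, lower in 3W over 2W (-0.71, 0.04828). These 3W over 2W calls were kept in 2 and 3 of 8 fits without 1 library.

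A further 10 tested genes encode partners of the urokinase receptor or proteins of the same fold. Of these, 2 were called higher in 2W over mono, 1 higher and 1 lower in 3W over 2W, and 4 higher in 3W over mono. *Egfr* (log2 fold change 1.59, adjusted p = 0.03849) and the integrin *Itgb5* (0.93, 0.02984) were the ones higher in 2W-PSCs, kept in 2 and 1 of 8 fits without 1 library, and both were also called in 3W over mono (1.496, 0.0007977, and 1.04, 5.731e-05), there in all 8. The integrin *Itgb3* fell in 3W-PSCs against 2W-PSCs, from 9.95 ± 5.97 to 1.80 ± 1.27 CPM (-2.44, adjusted p = 0.0166), and was at 1.39 ± 1.08 CPM in mono-PSCs. That call was lost without 3W replicate 1 (adjusted p = 0.06258) or 2 (0.06632). *Ly6c1*, of the same protein fold as the receptor, rose from 20.6 CPM in 2W-PSCs to 51.1 ± 18.6 in 3W-PSCs (1.31, adjusted p = 0.01344). Its level in mono-PSCs was 40.8 ± 12.6 CPM, so 2W-PSCs had the lowest mean. The difference of 2W-PSCs from mono-PSCs was not called (log2 fold change -0.96, adjusted p = 0.1742, edgeR). Of 7 genes of the thrombin and tissue factor axis only *Pros1*, the anticoagulant protein S, was called in 3W over 2W, from 26.5 ± 7.88 to 80.2 ± 21.9 CPM (1.59, adjusted p = 0.004682), with 3 called higher in 3W over mono. Of 8 tested serpin targets and receptors only the lysosomal protease *Ctsb* was called in 3W over 2W, from 196.6 ± 38.1 to 372.6 ± 24.3 CPM (0.92, adjusted p = 0.007461), with 3 higher and 1 lower in 3W over mono. Over all 128 genes outside the 9, of which 44, 45 and 45 were tested, 4, 9 and 24 were called, with median log2 fold changes of 0.17, -0.06 and 0.05, against 0.02, 0.003 and 0.012 over all genes tested.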

How the data were processed

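RNA of mCherry-sorted PSCs was measured in 12 libraries, 4 per culture. The authors made the libraries with the QuantSeq 3′ kit, used FastQC on the reads of 75 bases, then trimming, STAR alignment against GRCm38 and featureCounts for a count per gene. The deposited values are raw counts, although the study's methods speak of normalised ones. The strand setting, the handling of reads that map to several genes and the use of molecular identifiers are not given in the sources used here, so the counts may include PCR copies and statements on depth cover counting error only. A 3′ library counts low any gene whose annotated end is wrong.

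The 9 genes and all lists were chosen with earlier results of these data known. Genes outside the 9 were named where a list gene was called in 3W against 2W or in 2W against mono (at most 8 per list), with the 2 genes most correlated with each member; exceptions are stated. Counts were scaled by TMM and cultures compared in pairs with edgeR 4.0.16 under R 4.3.3 (filterByExpr, glmQLFit, glmQLFTest, prior count 0.125, 8 libraries per fit), with Benjamini-Hochberg adjustment over all genes tested and calls at an adjusted p under 0.05. For correlations, log2 CPM took a prior count of 2. Against a culture with at most 3 counts in each library, the fold is a lower bound against 3 counts per library. Alternatives were DESeq2 size factors, no filter, at least 10 counts in every library, a replicate block, a prior count of 2, DESeq2 1.42.0 (the study's test, by Wald), all 12 libraries in one fit and each library left out. The code was tested on simulated data. Positions, exon overlaps and shared windows come from GENCODE on GRCm38, promoter windows from RefSeq.

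On GRCm38 *Serpine2* (ENSMUSG00000026249) spans chr1:79794197-79861180, *Serpinb2* (ENSMUSG00000062345) chr1:107511423-107535478, *Plaur* (ENSMUSG00000046223) chr7:24462484-24475968, *Serpinh1* (ENSMUSG00000070436) chr7:99345376-99353239, *Plat* (ENSMUSG00000031538) chr8:22757727-22782844, *Serpinf1* (ENSMUSG00000000753) chr11:75409769-75422701, *Serpina3g* (ENSMUSG00000041481) chr12:104236245-104241939, *Serpina3n* (ENSMUSG00000021091) chr12:104406729-104414329 and *Plau* (ENSMUSG00000021822) chr14:20836660-20843385. Counts are summed over the exons of each gene. Some genes of the lists are counted but not reported here by name.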

Additional observations from a re-analysis of the deposited data

Results flagged for a closer look

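2 single libraries stood apart from the other 3 of their culture by Dixon's test. *Plat* in 3W-PSC replicate 4 was at 13.5 CPM, below the 17.9 to 18.6 CPM of the other 3W libraries. *Serpinf1* in mono-PSC replicate 1 was at 36.7 CPM, above the 21.4 to 23.6 CPM of the other mono libraries. 21 groups of libraries were tested, and chance flags about 1 in 20.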

How the results depend on the processing

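The called differences of the members kept their direction in every setting that tested them. In 3W against 2W the calls of *Serpina3g*, *Serpina3n* and *Serpinf1* were kept in all settings that tested them, and at least 10 counts in every library left 1 member called against 2W-PSCs and 1 against mono-PSCs, since that filter removes both *Serpina3* genes and, against mono-PSCs, *Plaur*. Of 693 values for single genes over all settings, 611 stayed on their side of the threshold, 59 lost and 9 gained a call and 14 changed sign. Where no cause is shown here, the cause was not tested.

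In 2W against mono 111 genes were called, and 177 without a filter, 57 with at least 10 counts in every library, 254 with DESeq2 and 262 with all 12 libraries in one fit. Members called there were 0, and 1 without a filter, 1 with the replicate block, 2 with DESeq2 and 2 with 12 libraries, while DESeq2 called 7 list genes in place of 4. In 3W against 2W 1230 genes were called, 1902 with DESeq2 and 752 with the replicate block. In 3W against mono 3054 were called. The log2 fold change of *Plau* in 2W over mono was -0.12 with the replicate block, and that of *Serpinh1* in 3W over 2W 0.064.

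Leaving out 1 library at a time gave 61 to 233 genes in 2W against mono, most without 2W replicate 2, and 497 (without 3W replicate 2) to 2107 (without 2W replicate 2) in 3W against 2W. Members called in 2W against mono were 0 to 1, and list genes 0 to 4 there and 4 to 17 in 3W against 2W. Log2 fold changes in 2W over mono ran from -0.25 to 0.54 for *Serpine2*, -0.49 to 0.22 for *Serpinh1* and -0.29 to 0.67 for *Plau*. In 3W over 2W they ran from -0.40 to 0.39 for *Serpine2*, -0.49 to 0.21 for *Serpinh1* and -0.37 to 0.20 for *Plat*, and in 3W over mono from -0.061 to 0.35 for *Serpine2* and -0.19 to 0.11 for *Serpinf1*.

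Libraries with the same replicate number did not all deviate together. Correlations were 0.099 to 0.338 for 2W and mono, -0.048 to 0.155 for 3W and 2W and 0.003 to 0.107 for 3W and mono. In these comparisons 6, 3 and 4 of 8 libraries were closest to their own number. The labels do not say that the numbers mark pairs, so the main fits took none. In 2W and mono the libraries did go together by number more often. With the replicate block 135, 752 and 3092 genes were called. *Serpinf1* was then called in 2W over mono (adjusted p = 0.0361, edgeR), and *Serpinb8* (0.07866), *Lrpap1* (0.08222), *Lrp1* (0.07285) and *Anxa2* (0.07873) were not called in 3W over 2W. Calls also ended for *Lrpap1* without a filter (0.07325) and, with all 12 libraries in one fit, for *Lrp1* in 3W over 2W (0.1482) and *Serpinb6b* in 3W over mono (0.09425). *Serpinb2*, *Serpina3f* and *Serpina3i* had too few counts to pass the filter, and differences in 2W-PSCs are limited by replicate 2.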
